A study of Mus musculus with 24 samples.

Results

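The comparison described here set hearts of mice 72 h after an ischemic stroke of the brain against hearts taken 24 h after the same stroke. Its members were chosen by the sample titles: the 6 arrays of the group MCAO 72 h and the 6 arrays of the group MCAO 24 h, 12 of the 24 arrays of the series. MCAO is occlusion of the middle cerebral artery, which cuts the blood supply to part of the brain. All animals were C57BL/6J mice aged 8 weeks, with no transgene or drug named. The other 12 arrays came from hearts of sham-operated mice of the same strain and age. There were 6 at 24 h (Sham 24 h) and 6 at 72 h (Sham 72 h), the same times without the occlusion. Whether every array holds another animal is not given in the labels; the p-values reflect array-to-array spread, part of which may be technical.

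Loss of blood flow to the brain activates the sympathetic nerves and the adrenal axis, both of which reach the heart. Heart muscle answers such input within hours through immediate-early genes, which encode short-lived transcription factors, and more slowly through its contractile proteins. In the adult mouse ventricle the fast alpha myosin heavy chain (Myh6) predominates, while the slow beta chain (Myh7) belongs to the fetal heart and returns under load. Protein folding in the endoplasmic reticulum has its own response, in which the sensors Atf6, Ire1 and Perk raise the chaperones of that compartment.

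All values are the deposited log2 levels, and a difference of 1 on that scale is a 2-fold change. The heart label was borne out in all 24 arrays: the cardiomyocyte genes Myh6, Tnnt2, Actc1, Myl2 and Ttn lay between 10.96 and 13.49. The MCAO 24 h arrays differed more among themselves than those of the other 3 groups. They correlated with the rest of their group at r between 0.971 and 0.991 across genes, with replicate 6 at 0.971 and replicate 5 at 0.976, whereas the MCAO 72 h arrays reached 0.996 to 0.997. The sham arrays lay between 0.985 and 0.997, and Sham 24 h replicate 5, at 0.985, was below 4 of the 6 MCAO 24 h arrays, so on this measure the groups overlapped. The median SD of a gene was 0.218 within MCAO 24 h against 0.105 within MCAO 72 h, 0.130 within Sham 24 h and 0.114 within Sham 72 h. The 1365 olfactory and vomeronasal receptor genes, which serve smell, also scattered more on the MCAO 24 h arrays (SD of their deviations 0.147 to 0.245) than on the MCAO 72 h arrays (0.0830 to 0.0971). Results are therefore given with and without MCAO 24 h replicates 5 and 6.

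Between 24 h and 72 h after stroke transcripts of the slow myosin Myh7 rose in the heart, and those of the nuclear receptor Nr4a1, the stress factor Atf3, the iron exporter Slc40a1 and the clustered microRNA genes Mir23a and Mir27a fell. In all, 848 of 24011 named genes (3.53%) differed at an adjusted p below 0.05, termed called below (limma, Benjamini-Hochberg adjustment over all genes, 6 arrays against 6). Of these, 425 (1.77%) were higher at 72 h and 423 (1.76%) were lower, and 21 and 10 of them differed at least 2-fold. The arrays of the 2 times did not overlap for 867 genes (3.61%), 455 higher (1.89%) and 412 lower (1.72%) at 72 h. Since these are whole hearts, fewer cells of a type and less RNA per cell cannot be told apart. Without MCAO 24 h replicates 5 and 6 the count was 2056 (8.56%), which included 758 of the 848, and all 848 kept their direction. With all 24 arrays in a single fit it was 2496 (10.4%), which included 802 of the 848.

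By group means, most of the called genes were farther from the sham level at 24 h than at 72 h. Among the 425 higher genes, MCAO 24 h had the lowest mean of the 4 groups for 416. Among the 423 lower genes, MCAO 24 h had the highest mean for 394. The distance from the mean of the sham groups was larger at 24 h for 756 of the 848 and larger at 72 h for 92, of which 26 were higher and 66 were lower at 72 h. Myh7, Inmt, Thbs2 and Slc2a1 belonged to the 26, and Higd1a, Pgam2, Eno3 and Sdhb to the 66. This describes group means and was not tested. The 848 were selected by their difference from MCAO 24 h, the group with the largest gene SD. Error in the MCAO 24 h mean enters both that selection and the distance from sham, so the selection raises these counts.

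Between the sham groups almost no change was called. In the same contrast fitted on the 12 sham arrays, 1 gene was called (0.00416%), the clock gene Arntl, and 1618 genes (6.74%) passed an unadjusted p of 0.05, against 4935 (20.6%) in the stroke contrast. The number of genes called in both contrasts was 0 with limma, and with all 24 arrays in a single limma fit it was 1, Arntl. With 1 gene called in the separate sham fit, the overlap could not exceed 1. It therefore cannot show that the other changes were absent in sham. Of the 848 genes called after stroke, 38 had an unadjusted p below 0.05 in the sham contrast in the same direction and 32 in the opposite direction. The sham difference had the same sign for 328 and the opposite sign for 520, with a median absolute size of 0.07 against 0.45 after stroke. The 848 were selected by their stroke contrast, which favours a larger size there. The time effect itself differed between stroke and sham for 430 genes (1.79%), 238 upward (0.991%) and 192 downward (0.8%). This test of the difference called 314 of the 848 in the direction of the stroke contrast, 180 higher and 134 lower. It contains the stroke contrast and uses the same stroke arrays. The overlap is therefore a count only, and the shared direction is no separate evidence. For the other 534, a difference from the sham time effect was not shown.

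**Figure D1:**
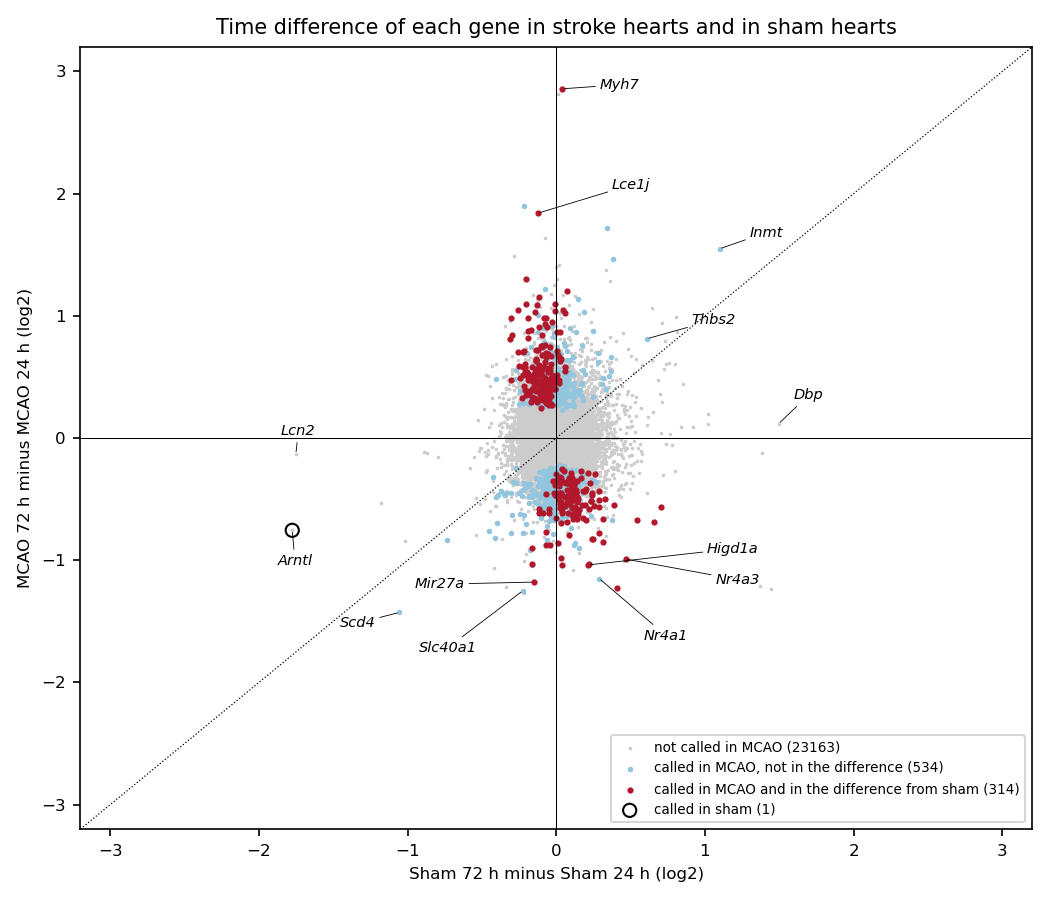
Each point is 1 of 24011 genes, with the Sham 72 h minus Sham 24 h difference on the x axis and the MCAO 72 h minus MCAO 24 h difference on the y axis, both log2 means of 6 arrays against 6; the dotted line marks equal differences. The 314 genes in red were called in the stroke contrast and in the test of the difference, and the ringed gene, Arntl, was the 1 called in the sham contrast.

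The adult heart's slow myosin gene gave the largest called difference. The largest changes named from here on leave out predicted gene models, which were 123 of the 848 called genes and had no established name, and receptor genes of smell. Myh7 (Entrez Gene 140781), beta myosin heavy chain, lay at 7.21, 8.97 and 10.27 (lowest, median and highest of 6 arrays) at MCAO 24 h and at 11.20, 11.84 and 12.16 at MCAO 72 h. Every array at 72 h was above every array at 24 h. The difference was 2.86 (SE 0.41), or 7.25-fold (limma, adjusted p = 0.00789), and 2.95 (adjusted p = 0.00615) without replicates 5 and 6. In sham hearts Myh7 was 8.69 ± 0.31 at 24 h and 8.73 ± 0.47 at 72 h (SD, n = 6 each), so the level at MCAO 24 h was near that of sham and the level at MCAO 72 h was far above it. The time effect exceeded that of sham by 2.82 (SE 0.49, adjusted p = 0.00713).

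Other genes of the fetal and hypertrophy program mostly were not called. Of 15 measured members 2 were called higher (13.3%, against 1.77% of all genes; Myh7 and Xirp2, a protein of the intercalated disc) and 0 lower, with a median difference of 0.10 against −0.01 over all genes. Myh6 stayed between 11.93 and 12.73 at 24 h and between 12.44 and 12.78 at 72 h, a difference of 0.05 (SE 0.13, adjusted p = 0.853). The natriuretic peptide genes Nppa (0.21, SE 0.30, adjusted p = 0.739) and Nppb (−0.02, SE 0.21, adjusted p = 0.966) were not called. Skeletal alpha actin, Acta1, another fetal marker, had a difference of −0.66 (SE 0.24, adjusted p = 0.143), and the growth factor gene Ccn2 one of 0.48 (adjusted p = 0.153). The list named for fetal genes therefore holds 1 large change, in the myosin gene itself.

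Nmrk2 (Entrez Gene 69564), a muscle kinase that makes the NAD precursor NMN from nicotinamide riboside, also rose. Its lowest, median and highest values were 4.31, 4.57 and 4.67 at MCAO 24 h and 4.98, 5.51 and 6.22 at MCAO 72 h, with no overlap. The difference was 1.04 (SE 0.18, adjusted p = 0.0141), 2.05-fold, and 0.99 (adjusted p = 0.0175) without replicates 5 and 6. Sham hearts held 5.13 ± 0.45 at 24 h and 5.12 ± 0.15 at 72 h (SD, n = 6), between the 2 stroke groups.

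Inmt (Entrez Gene 21743), a methyltransferase of small amines, went from 4.18, 5.21 and 6.16 to 6.36, 6.67 and 7.15. All 6 arrays at 72 h were above those at 24 h, a difference of 1.55 (SE 0.34, adjusted p = 0.0287), 2.93-fold. In sham hearts the difference was 1.10 (adjusted p = 0.53), not called but again without overlap. Thbs2, a matricellular protein of connective tissue, also rose: 6.74, 7.16 and 7.42 at 24 h against 7.57, 7.99 and 8.27 at 72 h (difference 0.81, SE 0.15, adjusted p = 0.0153), with an overlapping sham difference of 0.61 (adjusted p = 0.556). For neither gene did the time effect pass the test against sham (adjusted p = 0.68 and 0.725). The call for Inmt held in 6 of the 12 fits that left out 1 stroke array, and that for Thbs2 in all 12.

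The other genes with the largest called increases were below sham at MCAO 24 h and nearer to it at 72 h. Sft2d1, a protein of vesicle transport, had the widest span at 24 h, 3.58, 3.87 and 6.52, against 5.53, 6.23 and 7.04 at 72 h (difference 1.90, adjusted p = 0.0332, overlapping). Its sham means were 6.60 and 6.38. Lce1j, a cornified envelope gene of the skin, lay at 4.74, 5.89 and 8.17 and then at 7.61, 7.93 and 8.13 (1.84, adjusted p = 0.0417), with sham means of 7.93 and 7.80. In both genes MCAO 24 h replicate 6 was the highest array of its group and lay at the sham level, and without replicates 5 and 6 the differences were 2.34 and 2.12 (adjusted p = 0.00274 and 0.00468). With 1 stroke array left out in turn, Sft2d1 was called in 3 and Lce1j in 2 of 12 fits.

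The remaining increases in the 15 largest also had their lowest group mean at MCAO 24 h. They were Ifi207 of the interferon-inducible PYHIN family (1.46), the microRNA genes Mir3473d (1.30) and Mir3058 (1.15), the transcription factor gene Zhx3 (1.21), the pseudogene Ppp1r2-ps3 (1.14), the T cell receptor segments Trdj1 (1.10), Trgv1 (1.09) and Trbj2-5 (1.03), the spindlin family gene Spin2d (1.05) and the gamma-secretase subunit gene Aph1a (1.03). Adjusted p-values of these 10 ran from 0.0031 (Trgv1) to 0.0432 (Aph1a). Ifi207 ended above sham, at a mean of 5.38 in 72 h hearts against 4.59 and 4.98 in the sham groups. Trgv1 showed no overlap, at 5.77 to 6.77 in 24 h hearts and at 7.32 to 7.56 in 72 h hearts, where the sham means were 7.44 at both times. Aph1a lost its call without replicates 5 and 6 (adjusted p = 0.0749). For 13 of the 15 largest increases MCAO 24 h had the lowest mean of the 4 groups, as it had for 416 of all 425 higher called genes. Myh7 and Inmt were the exceptions among the 15.

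**Figure D2:**
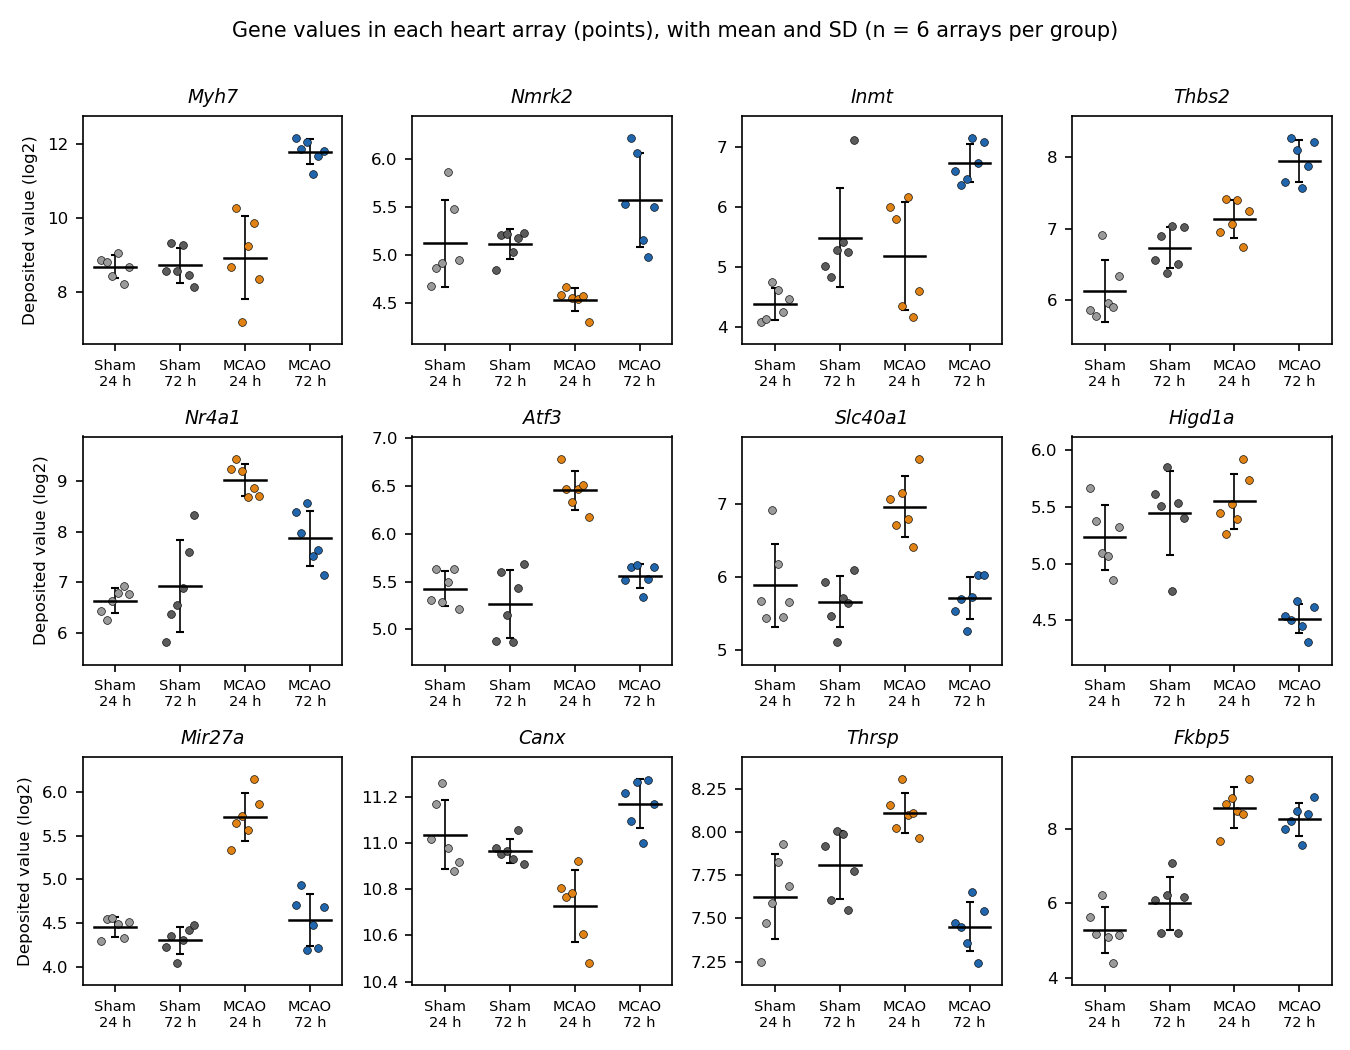
The deposited log2 value of 12 genes is plotted for every array, with the group mean (horizontal line) and SD (n = 6 arrays per group); each panel has its own y axis. Myh7 at MCAO 72 h (11.20 to 12.16) lies above all other arrays, Atf3 and Mir27a are high at MCAO 24 h only, Higd1a is low at MCAO 72 h only, and Fkbp5 is above sham in both stroke groups.

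Several immediate-early genes fell. Of 29 measured members 7 were called lower (24.1%, against 1.76% of all genes) and 0 higher: Nr4a1, Nr4a3, Atf3, Btg2, Ier2, Jund and Fosl2. The median of the list was −0.10 against −0.01 over all genes, and 13 of the 29 differences were above 0. Without replicates 5 and 6, 7 members were lower and 1, the phosphatase gene Dusp2, was higher. Leaving out 1 array gave 3 called members (without MCAO 72 h replicate 3) to 10 (without MCAO 24 h replicate 1).

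Nr4a1 (Entrez Gene 15370), an orphan nuclear receptor induced within minutes by many stimuli, stood at 8.67, 9.02 and 9.44 at MCAO 24 h and at 7.14, 7.80 and 8.56 at MCAO 72 h. The groups did not overlap, and the fall was 1.15 on the log2 scale (−1.15, SE 0.23, adjusted p = 0.0192), 2.22-fold. Its level at 72 h remained above the mean of both sham groups, 6.64 ± 0.25 and 6.93 ± 0.91 (SD, n = 6). The difference between the stroke and sham time effects was −1.44 (SE 0.43, adjusted p = 0.0787) and was not called. Its relative Nr4a3 went from 4.67, 5.22 and 6.10 to 4.17, 4.20 and 4.62, a difference of −0.99 (SE 0.23, adjusted p = 0.0374), and here the time effect did differ from sham, by −1.46 (adjusted p = 0.0221).

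Atf3 (Entrez Gene 11910), a stress-induced transcription factor, had the smallest adjusted p of the list. Values of 6.17, 6.47 and 6.79 at 24 h gave way to 5.33, 5.59 and 5.67 at 72 h, with no overlap (−0.90, SE 0.10, adjusted p = 0.0031). At 72 h the mean was 5.56 ± 0.13 (SD, n = 6), near the sham means of 5.43 and 5.27, and the time effect differed from sham by −0.74 (adjusted p = 0.0391). Ier2, a small nuclear protein, fell by 0.60 (−0.60, adjusted p = 0.0159), also differently from sham (−0.64, adjusted p = 0.044). The antiproliferative gene Btg2 had −0.76 (adjusted p = 0.0251) with −0.45 in sham. The AP-1 subunits Jund and Fosl2 had −0.41 (adjusted p = 0.0322) and −0.36 (adjusted p = 0.0388), with −0.04 and −0.29 in sham. For Btg2, Jund and Fosl2 the time effect was not called different from sham (limma, adjusted p = 0.578, 0.174 and 0.813). Nr4a1, Atf3 and Ier2 were called whichever of the 12 stroke arrays was left out, Btg2 in 8 of these fits, Jund and Fosl2 in 6 and Nr4a3 in 5. The best known members of the class were not called: Fos had −0.07 (adjusted p = 0.847), Jun 0.06 (adjusted p = 0.881) and Egr1 0.01 (adjusted p = 0.975).

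**Figure D3:**
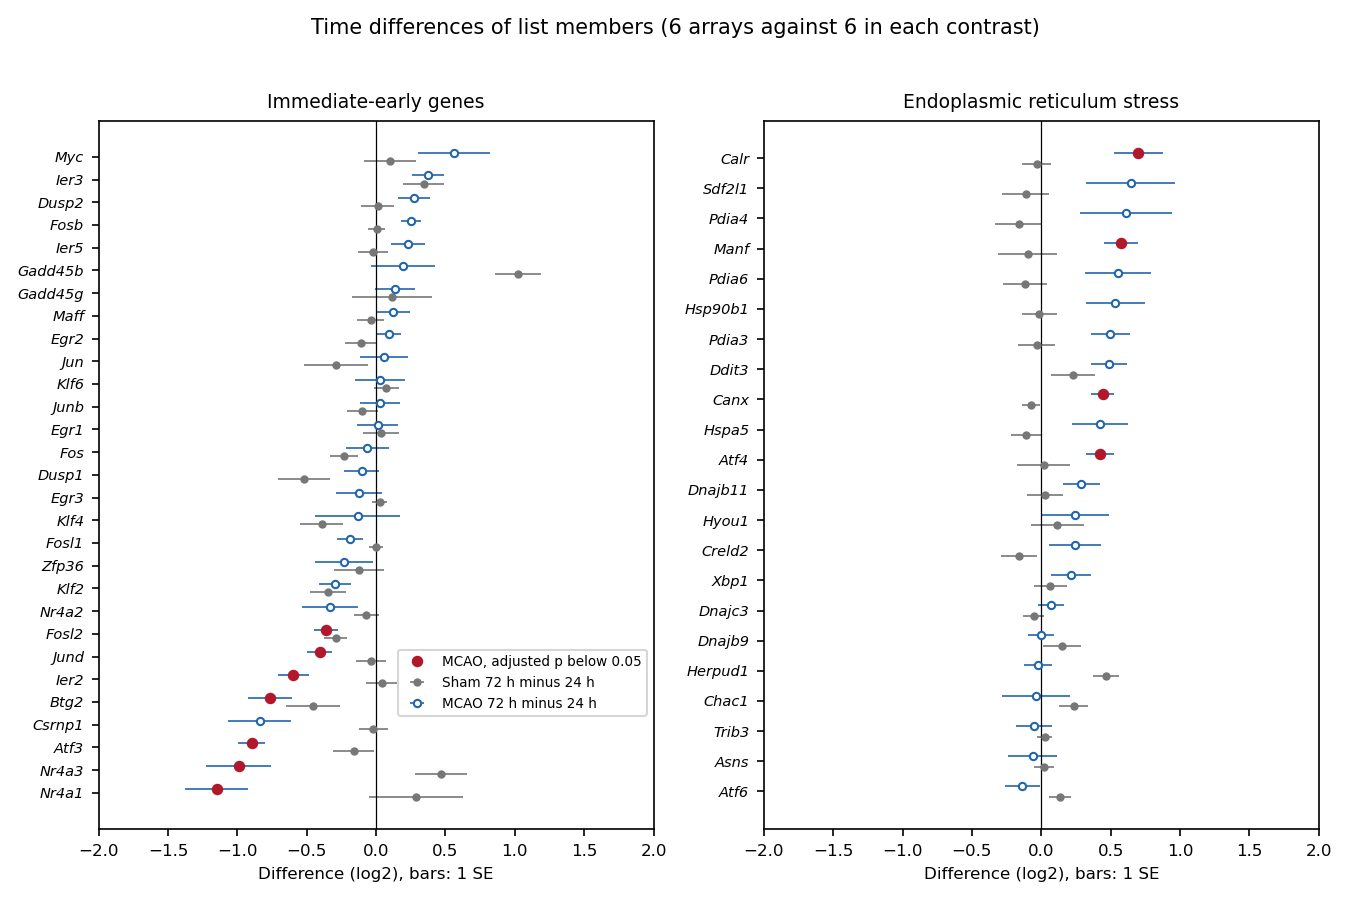
Differences between 72 h and 24 h (log2, bars 1 SE) are plotted for the 29 immediate-early genes and the 22 genes of endoplasmic reticulum stress, in stroke hearts (blue, red where called) and sham hearts (grey). The 7 called immediate-early genes lie left of 0 and the 4 called genes of the other list lie right of it.

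Several genes of the endoplasmic reticulum rose. Of 22 measured members of the endoplasmic reticulum stress list 4 were called higher (18.2%, against 1.77% of all genes) and 0 lower: Canx, Calr, Manf and Atf4. The median difference was 0.36 after stroke and 0.00 in sham, and 16 of 22 members were above 0. Without replicates 5 and 6 again 4 were higher, now Canx, Manf, Pdia3 and Ddit3, with a median of 0.38. Leaving out 1 array gave 1 called member (without MCAO 72 h replicate 2) to 4: Canx was called in all 12 such fits, Manf in 9, Atf4 in 5 and Calr in 1.

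Canx (Entrez Gene 12330) encodes calnexin, the membrane chaperone of glycoproteins. It lay at 10.48, 10.77 and 10.92 at MCAO 24 h and at 11.00, 11.19 and 11.28 at MCAO 72 h, without overlap (0.44, SE 0.08, adjusted p = 0.0156). Sham hearts held 11.04 ± 0.15 and 10.97 ± 0.05 (SD, n = 6), so the stroke hearts were lower than sham at 24 h and slightly higher at 72 h, and the time effects differed by 0.51 (SE 0.10, adjusted p = 0.0144). Calr, its soluble partner calreticulin, went from 9.75, 10.09 and 10.27 to 10.19, 10.68 and 11.41 (0.70, SE 0.17, adjusted p = 0.0436, overlapping). That call was lost without replicates 5 and 6 (0.61, adjusted p = 0.0681). Manf, a secreted protein of this compartment, had 0.57 (adjusted p = 0.0261), and Atf4, the transcription factor downstream of Perk, 0.42 (adjusted p = 0.035, and 0.0528 without replicates 5 and 6). The time effects of Calr, Manf and Atf4 were not called different from sham (limma, adjusted p = 0.0737, 0.163 and 0.353). Calr (mean 10.76) and Manf (4.75) ended above their sham means (10.53 and 10.50, 4.46 and 4.37). Atf4 rose from 6.69 to 7.11, still below its sham means of 7.19 and 7.21. The classic markers were not called: Hspa5 (BiP) 0.42 (SE 0.20, adjusted p = 0.258) and Hsp90b1 (Grp94) 0.53 (SE 0.21, adjusted p = 0.179).

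The promoters of the 2 called chaperones Calr and Canx are shown because both hold the endoplasmic reticulum stress element, the sequence bound by Atf6 with the factor NF-Y. The motif searched was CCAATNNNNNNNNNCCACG on both strands, in windows of 300 bases (250 before to 50 after the gene start) from RefSeq, build GRCm38.p6. It was found in 7 of the 19 list members with a window (Calr, Canx, Creld2, Dnajc3, Hsp90b1, Hspa5 and Pdia6) and in 39 of all 32851 windows (0.119%). The list was made of genes tied to this response, so its share of matches says nothing about these hearts. The 7 had a median difference of 0.44 and the other 12 of 0.25. Of the 7, 2 were called (Calr and Canx), and of the other 12, 1. Whether the motif bears on the differences was not tested. Atf4 held no match and Manf had no window. Each window is written 5′ to 3′ along its gene with the match in capitals.
Calr promoter, chr8:84846882-84847181, minus strand: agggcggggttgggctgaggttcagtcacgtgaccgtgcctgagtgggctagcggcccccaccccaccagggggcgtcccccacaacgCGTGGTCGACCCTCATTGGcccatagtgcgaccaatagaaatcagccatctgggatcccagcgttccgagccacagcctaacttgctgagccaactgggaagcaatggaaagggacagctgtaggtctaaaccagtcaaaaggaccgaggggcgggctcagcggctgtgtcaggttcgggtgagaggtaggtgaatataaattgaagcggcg
Canx promoter, chr11:50325624-50325923, minus strand: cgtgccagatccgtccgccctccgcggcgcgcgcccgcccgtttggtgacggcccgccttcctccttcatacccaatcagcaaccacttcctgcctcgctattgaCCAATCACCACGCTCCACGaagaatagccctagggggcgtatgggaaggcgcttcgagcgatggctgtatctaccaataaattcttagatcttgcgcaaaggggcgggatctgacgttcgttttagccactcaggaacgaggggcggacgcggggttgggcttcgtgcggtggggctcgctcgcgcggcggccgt
The match lies 162 to 144 bases before the start in Calr, on the opposite strand to the gene, and 145 to 127 bases before it in Canx.

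Among the 15 largest falls, 4 were microRNA genes: Mir27a, Mir23a, Mirlet7c-1 and Mir30e. Among the 15 largest increases were Mir3473d and Mir3058. The identifiers name genes, not mature arms, so the sequences printed are those each gene can yield, from RefSeq on GRCm38.p6 with the seed (bases 2 to 8) in capitals. Among the 535 microRNA genes tested, 477 had a sequence there, and so did 23 of the 27 that were called.
mmu-miR-23a-5p: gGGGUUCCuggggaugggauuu
mmu-miR-23a-3p: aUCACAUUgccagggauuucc
mmu-miR-27a-5p: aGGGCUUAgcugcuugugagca
mmu-miR-27a-3p: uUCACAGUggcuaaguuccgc
mmu-let-7c-5p: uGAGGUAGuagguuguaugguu
mmu-let-7c-1-3p: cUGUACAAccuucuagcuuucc
mmu-miR-30e-5p: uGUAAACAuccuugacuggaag
mmu-miR-30e-3p: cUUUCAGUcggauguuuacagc
mmu-miR-3058-5p: uCAGCCACggcuuaccuggaaga
mmu-miR-3058-3p: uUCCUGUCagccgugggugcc
mmu-miR-3473d: cCACUGAGccacuuuccagcccuu
No seed was shared: the 11 sequences held 11 different seeds.

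Mir23a and Mir27a are neighbours on the plus strand of chromosome 8 (hairpins chr8:84208518-84208592 and chr8:84208672-84208758, 79 bases apart) and fell together. Mir27a lay at 5.33, 5.69 and 6.15 at MCAO 24 h and at 4.19, 4.58 and 4.93 at MCAO 72 h (−1.18, SE 0.15, adjusted p = 0.00388). Mir23a lay between 4.26 and 5.55, with a mean of 4.97, and then between 3.75 and 4.26, with a mean of 3.99 (−0.98, SE 0.18, adjusted p = 0.0153). In both the 2 times did not overlap, and the time effect differed from sham by −1.03 (adjusted p = 0.00711) and −1.02 (adjusted p = 0.021). The third gene of this cluster, Mir24-2, had −0.26 (adjusted p = 0.161) and was not called.

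Mirlet7c-1 of the let-7 family (chr16:77599657-77599750) fell by 0.92 on the log2 scale (−0.92, SE 0.16, adjusted p = 0.0144) and Mir30e (chr4:120772606-120772697) by 0.87 (−0.87, SE 0.17, adjusted p = 0.0192). Both lie near the low end of the scale, with medians of 4.23 and 4.10 at 24 h and 3.41 at 72 h for both. For neither was the time effect called different from sham (limma, adjusted p = 0.0748 and 0.0521). Over all microRNA genes 27 of 535 were called (5.05%, against 3.53% of all genes), 10 higher and 17 lower. Without replicates 5 and 6, 26 of the 27 kept the call, as did 758 of all 848 called genes. All 17 lower ones, like 394 of all 423 lower called genes, had their highest group mean at MCAO 24 h. They included Mir155 (−0.59, adjusted p = 0.0159), a microRNA of immune cells, Mir29a (−0.59, adjusted p = 0.0269), which targets collagens, Mir32 (−0.62, adjusted p = 0.01), Mir490 (−0.78, adjusted p = 0.0144) and Mir99a (−0.78, adjusted p = 0.0395). Of 105 small nucleolar RNA genes 8 were called (7.62%, against the same 3.53%), all lower, among them Snora81 (−0.69, adjusted p = 0.0119) and Snord37 (−0.61, adjusted p = 0.0148). This grouping by gene type was made after the values were seen. Several of these genes also lay near the low end, among them Mir29a (stroke means 3.82 and 3.23) and Snord37 (4.24 and 3.63).

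The largest fall of a protein-coding gene was in Scd4 (Entrez Gene 329065), a stearoyl-CoA desaturase that makes monounsaturated fatty acids. Its values were 7.85, 7.95 and 8.20 at MCAO 24 h and 5.50, 6.71 and 7.55 at MCAO 72 h, with no overlap (−1.43, SE 0.31, adjusted p = 0.0273). Sham hearts showed a difference of −1.06 (SE 0.37, adjusted p = 0.624), from 5.93 ± 1.00 to 4.87 ± 0.28 (SD, n = 6), and the time effects did not differ by the test (−0.37, adjusted p = 0.758). Stroke hearts were above the sham mean of the same time at both times. The call held in 8 of 12 fits with 1 stroke array left out.

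Slc40a1 (Entrez Gene 53945), ferroportin, is the known exporter of iron from cells. It went from 6.41, 6.93 and 7.62 to 5.26, 5.71 and 6.02 without overlap (−1.25, SE 0.19, adjusted p = 0.00866), near the sham means of 5.88 and 5.66. Its time effect was not called different from that of sham (−1.02, SE 0.32, limma, adjusted p = 0.0954). Higd1a (Entrez Gene 56295), a mitochondrial protein induced by hypoxia, moved differently. At 24 h it stood at 5.26, 5.49 and 5.93, close to sham (5.23 ± 0.29 and 5.45 ± 0.37, SD, n = 6), and at 72 h at 4.30, 4.52 and 4.67, below all arrays of MCAO 24 h. The difference was −1.04 (SE 0.11, adjusted p = 0.0031) and differed from the sham time effect by −1.25 (SE 0.21, adjusted p = 0.00711).

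The remaining large falls were from a high level at 24 h toward sham at 72 h. Paqr6, a membrane progestin receptor family member, had −1.03 (adjusted p = 0.00684), the synaptotagmin gene Syt12 −1.03 (adjusted p = 0.0369), Ell2, an elongation factor of RNA polymerase II, −0.88 (adjusted p = 0.00866), Pomgnt2, a glycosyltransferase of the dystroglycan pathway, −0.88 (adjusted p = 0.00612), and the nonclassical class I gene H2-T22 −0.88 (adjusted p = 0.0173). Syt12 was not called without replicates 5 and 6 (adjusted p = 0.0588). For all 15 of the largest falls except Higd1a the MCAO 24 h mean was farther from sham than the MCAO 72 h mean. All 15 had their highest group mean at MCAO 24 h, as had 394 of all 423 lower called genes. Across the 30 largest changes, 24 showed no overlap, 28 were called without replicates 5 and 6, 18 were called whichever of the 12 stroke arrays was left out, and 19 were called in the test against sham (10 higher, 9 lower). The 30 were chosen as the largest called differences on the same arrays, so these counts follow in part from that choice. Over all 24011 genes 3.61% showed no overlap, 8.56% were called without replicates 5 and 6, and 1.79% were called in the test against sham. Of all 848 called genes, 209 were called whichever stroke array was left out.

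**Figure D4:**
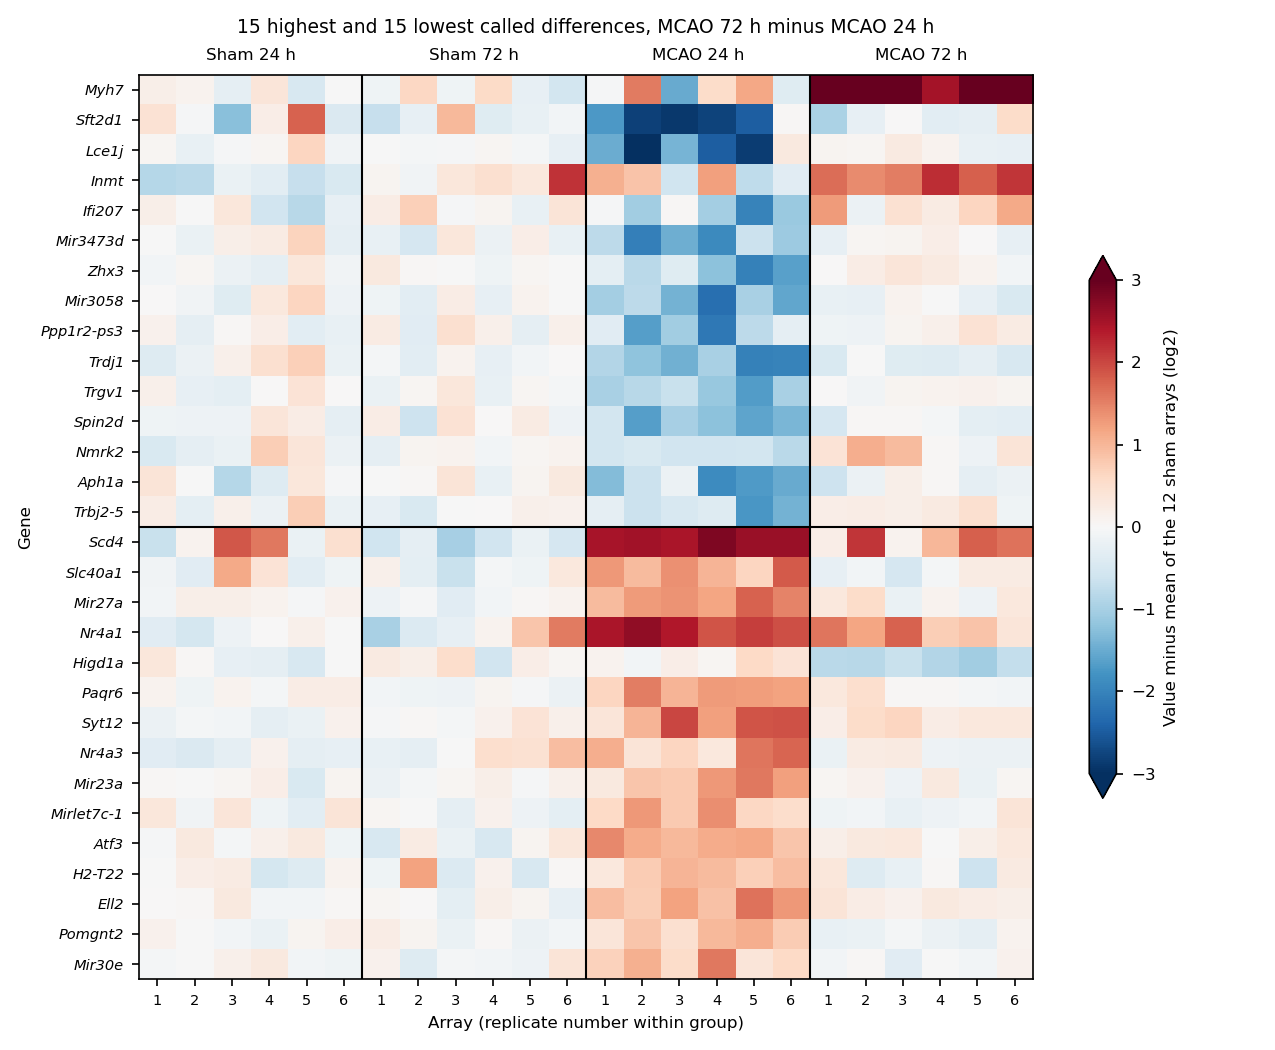
Colours give the value of each array minus the mean of the 12 sham arrays (log2, red higher, blue lower, drawn at the end colour past ±3) for the 15 highest and 15 lowest called differences among genes other than predicted models and receptor genes. Most rows lie farther from sham in the MCAO 24 h block, and Myh7, Inmt and Higd1a lie farther from it in the MCAO 72 h block. Some rows, such as Scd4 and Nr4a1, depart from sham in both blocks.

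In the lists that follow the shares called among all genes, 1.77% higher and 1.76% lower, are the background, and in lists of this size 1 call already exceeds them. Of 22 genes of glucose use 1 was called higher (4.55%), the glucose transporter Slc2a1 (0.52, SE 0.13, adjusted p = 0.0454), and 2 lower (9.09%), the muscle glycolytic enzymes Pgam2 (−0.51, SE 0.11, adjusted p = 0.0269) and Eno3 (−0.51, SE 0.12, adjusted p = 0.0417). Eno3 fell from 11.78, 11.85 and 12.21 to 11.05, 11.42 and 11.79, with sham means of 12.26 and 12.38, so both stroke groups lay below sham and the later one more so. Its time effect differed from sham by −0.62 (adjusted p = 0.0308). Hexokinase 1, Hk1, had 0.42 (adjusted p = 0.056). Slc2a1 lay at 6.38, 6.86 and 7.04 in 24 h hearts and at 7.03, 7.33 and 7.60 in 72 h hearts, with 1 array of each time in the overlap. With 1 stroke array left out, Slc2a1 and Eno3 were called in 3 of 12 fits and Pgam2 in 8, and Eno3 was not called without replicates 5 and 6 (adjusted p = 0.0674).

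Of 22 genes of lipid synthesis and storage 2 were called lower (9.09%, against 1.76% of all genes), Scd4 and Dgat1, and 0 higher (median −0.09). Dgat1, which completes triglyceride synthesis, went from 5.65, 5.95 and 6.30 to 5.27, 5.43 and 5.56 (−0.55, SE 0.11, adjusted p = 0.0229) and differed from the sham time effect by −0.72 (adjusted p = 0.0154). The lipase gene Pnpla2, at −0.24 (adjusted p = 0.213), and Acaca, of fatty acid synthesis, at −0.39 (adjusted p = 0.15), were not called. Of 20 genes of fatty acid use 1 was lower (5%), Cpt2, the inner membrane carnitine palmitoyltransferase (−0.40, SE 0.10, adjusted p = 0.0452), and 0 were higher. That call held in 1 of the 12 fits with an array left out and not without replicates 5 and 6 (adjusted p = 0.0721), whereas Dgat1 held in 10. Plin5, a lipid droplet protein of oxidative tissue, had −0.60 (adjusted p = 0.0742), Decr1 0.36 (adjusted p = 0.102) and Slc25a20 −0.35 (adjusted p = 0.137). Thrsp, a regulator of lipid synthesis listed with the adipocyte markers, was the 1 called of 14 there (7.14%): 7.97, 8.10 and 8.31 became 7.24, 7.46 and 7.65 (−0.66, SE 0.08, adjusted p = 0.0031), below the sham means of 7.63 and 7.81, and was called in all 12 fits.

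Of 31 genes of oxidative phosphorylation 1 was lower (3.23%, against 1.76% of all genes), the complex II subunit Sdhb (−0.32, SE 0.07, adjusted p = 0.0327), and the median was −0.07. Sdhb was called in 6 of the 12 fits with a stroke array left out. Complex I subunits Ndufs1 (−0.20, adjusted p = 0.0702) and Ndufa9 (−0.25, adjusted p = 0.0715) and the complex IV subunit Cox7a1 (−0.32, adjusted p = 0.0858) were not called. Of 18 hypoxia response genes 1 was higher (Slc2a1) and 1 lower (Higd1a), 5.56% in each direction. Ero1a, an oxidase of protein folding, had 0.41 (adjusted p = 0.0643), and the mitophagy gene Bnip3 −0.43 (adjusted p = 0.0761).

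Of 21 members of the glucocorticoid response 1 was called lower (4.76%, against 1.76% of all genes), the kinase gene Sgk1 (−0.44, SE 0.10, adjusted p = 0.0293), and 0 higher, with a median of −0.13. Sgk1 was called in 4 of the 12 fits with an array left out. Its sham difference was of similar size (−0.37, SE 0.11, limma, adjusted p = 0.55). The time effects of Sgk1 did not differ by the test (−0.07, adjusted p = 0.862). Fkbp5, the receptor's co-chaperone, lay at 7.67, 8.56 and 9.33 at MCAO 24 h and at 7.57, 8.30 and 8.86 at MCAO 72 h (−0.30, SE 0.25, adjusted p = 0.535). Both stroke groups were far above the sham means of 5.29 and 6.00. Mt2, a metallothionein, had −0.53 (adjusted p = 0.074), Tsc22d3 (Gilz) 0.22 (adjusted p = 0.0979) and Sult1a1 −0.42 (adjusted p = 0.18). A p above the threshold does not show that these levels were equal.

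A clock gene was the 1 call between the sham groups. Of 19 members 0 were called in the stroke contrast by limma, with 2 higher and 3 lower at an unadjusted p of 0.05, while the sham contrast called Arntl (Bmal1), the activator of the clock. Arntl was 6.80 ± 0.31 in Sham 24 h and 5.02 ± 0.47 in Sham 72 h (SD, n = 6; −1.78, SE 0.20, adjusted p = 0.0231). That call held in 4 of the 12 fits that left out 1 sham array (adjusted p between 0.00233 and 0.117), in which Dbp was called in 2 and Npas2 in 1. With the replicate number as a block Dbp was the 1 sham call and Arntl was not called. After stroke it lay at 5.48, 6.31 and 6.96 and then at 5.16, 5.38 and 5.72 (−0.76, SE 0.21, adjusted p = 0.0668), in the same direction. The test of the difference for Arntl missed the threshold (1.02, adjusted p = 0.0847). For Dbp, a clock output factor that runs opposite to Arntl, it passed: sham hearts held 8.63 ± 0.47 and 10.13 ± 0.31 (SD, n = 6; adjusted p = 0.0726), stroke hearts had 0.12 (SE 0.23, adjusted p = 0.816), and the time effects differed by −1.38 (SE 0.33, adjusted p = 0.033). Npas2 (−0.12, adjusted p = 0.686), Per3 (0.12, adjusted p = 0.716) and Per2 (0.09, adjusted p = 0.785) were not called after stroke, and their sham differences were −0.87, 1.02 and 0.84 (adjusted p = 0.0804, 0.257 and 0.338). Dbp and Npas2 were also called in sham with all 24 arrays in the fit, a trended prior, array weights, dim genes left out or the receptor gene component as covariate. Tef, related to Dbp, had 0.60 (adjusted p = 0.0516) after stroke and 0.58 in sham. The labels used here give no hour of the day at which hearts were taken, so it and the time after surgery cannot be told apart.

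Among genes of sarcomere assembly and the thin filament 2 of 22 were called higher (9.09%, against 1.77% of all genes), Tuba4a and Xirp2, and 0 lower. Tuba4a, an alpha tubulin, went from 9.01, 9.46 and 9.79 to 9.73, 10.41 and 11.01 (0.93, SE 0.19, adjusted p = 0.0251) while sham held 11.25 and 11.17, so the level at 72 h was still below sham. Its time effect differed from sham by 1.01 (adjusted p = 0.0459). With 1 stroke array left out, Tuba4a was called in 8 of 12 fits and Xirp2 in 5. Tuba8 had 0.86 (adjusted p = 0.0797) and the M-band protein gene Myom2 0.42 (adjusted p = 0.0703). Of 24 genes of calcium handling and ion channels 1 was higher (4.17%), the potassium channel subunit Kcne1 (0.52, SE 0.12, adjusted p = 0.0309), called in 5 of those fits. Slc8a1, the sodium-calcium exchanger, had 0.35 (adjusted p = 0.113), the calcium channel subunit Cacnb2 0.38 (adjusted p = 0.152) and Kcnh2 0.38 (adjusted p = 0.153). Gja1, the ventricular gap junction protein connexin 43, was 9.89 ± 0.23 and 10.12 ± 0.25 after stroke and 11.01 ± 0.14 and 10.52 ± 0.15 in sham (SD, n = 6). Its time effects differed (0.72, adjusted p = 0.0218) although neither single contrast passed (adjusted p = 0.323 after stroke, 0.127 in sham).

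Of 33 extracellular matrix genes 1 was called higher (3.03%, against 1.77% of all genes) and 0 lower (median −0.02). That gene was decorin, Dcn (0.34, SE 0.08, adjusted p = 0.0395), which binds collagen, and it lost its call without replicates 5 and 6 (adjusted p = 0.0562). Sparc (−0.30, adjusted p = 0.119), Col5a1 (0.42, adjusted p = 0.121) and Eln (−0.36, adjusted p = 0.159) were not called. Of 14 heat shock chaperones 1 was lower (7.14%, against 1.76%), Hspa1a (−0.83, SE 0.19, adjusted p = 0.0336), the inducible Hsp70, with a sham difference of −0.74. Hsph1 had −1.08 with no overlap but a wide spread at 24 h (6.00, 6.36 and 8.25; adjusted p = 0.0662), and Hspa4l −0.28 (adjusted p = 0.166). Hspa8, the constitutive Hsp70, was low on MCAO 24 h replicates 6 (7.32) and 5 (10.73), against 12.26 to 12.32 on the other 4. Its difference was 1.17 (SE 0.71, adjusted p = 0.374), and 0.09 without those 2 arrays. Of 22 ribosomal protein genes 1 was lower (4.55%), Rpl7 (−0.61, adjusted p = 0.0371), and Rpl22, Rps3 and Rps2 (0.32, 0.32 and 0.38) were not called. With 1 stroke array left out, Hspa1a was called in 6 of 12 fits, and Dcn and Rpl7 in 3 each. Rpl7 lay low on the scale, at 3.63 to 4.80 on the stroke arrays.

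Markers of the other cells a heart can hold were mostly not called. Of the 15 lists of cell types and antigen presentation, those of ventricular and atrial muscle, fibroblasts, smooth muscle, epicardium, macrophages, neutrophils, lymphocytes, red cells, lung and nerve had 0 members called by limma, with 0 to 4 members per direction at an unadjusted p of 0.05. In 3 further lists 1 member was called, a share above that over all genes (1.77% higher, 1.76% lower). The endothelial list had 1 of 18 lower (5.56%), the receptor gene Tie1 (−0.48, SE 0.10, adjusted p = 0.0232), the class II list 1 of 12 lower (8.33%), H2-DMb2 (−0.35, adjusted p = 0.0325), and the skeletal muscle list 1 of 13 higher (7.69%), Tnnt3 (0.47, adjusted p = 0.0173), which at 3.53 to 4.41 was near the bottom of the scale. H2-DMb2, at 3.45 to 4.17 on the stroke arrays, also lay near the bottom. Tnnt3 was called in all 12 fits with an array left out, Tie1 in 8 and H2-DMb2 in 5. The mean level of the 16 neutrophil markers was 4.09 to 4.46 on the MCAO 24 h arrays and 4.05 to 4.17 on the MCAO 72 h arrays. That of the 22 macrophage markers was 6.01 to 6.61 and 6.12 to 6.56, and that of the 14 atrial markers 6.41 to 8.44 and 6.36 to 8.14. The part of tissue mix in the results was not tested.

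Of 24 interferon response genes 0 were called by limma (2 higher and 3 lower at an unadjusted p of 0.05; median −0.15). Of 24 chemokine and adhesion genes 1 was higher (4.17%, against 1.77% of all genes), Ccl5 (0.34, adjusted p = 0.035), and of 23 acute phase and cytokine genes 1 was higher (4.35%), Orm2 (0.29, adjusted p = 0.0476). Lcn2, an acute phase protein, overlapped fully between the stroke groups (10.21, 11.09 and 12.78 against 10.28, 10.97 and 12.04; −0.13, SE 0.43, adjusted p = 0.896), while in sham it was 9.75 ± 0.78 and 8.00 ± 0.59 (SD, n = 6; −1.75, adjusted p = 0.292). Among 30 cell cycle genes 1 was lower (3.33%, against 1.76% of all genes), Kif23, a kinesin of cell division (−0.38, adjusted p = 0.0309), and among 18 atrophy and FoxO target genes 1 was higher (5.56%), the ubiquitin ligase gene Fbxo30 (0.41, adjusted p = 0.0173). Fbxo30 was called in all 12 fits with an array left out, Ccl5 and Kif23 in 4 and Orm2 in 2. On the stroke arrays Ccl5 (3.72 to 4.41), Orm2 (3.06 to 3.65) and Kif23 (3.23 to 4.00) lay near the bottom of the scale. Of 18 p53 targets 1 was lower (5.56%), Btg2 again, and of 20 oxidative stress genes 0 were called by limma (2 higher and 5 lower at an unadjusted p of 0.05).

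Few stroke changes had a similar sham difference. Among the 848 called genes 32 had a sham difference in the same direction and at least 0.5 times as large, 10 of them higher and 22 lower. The higher ones with the largest stroke differences were Inmt, Thbs2, Rnf144b (0.66 after stroke, 0.37 in sham) and Sncg (0.55 and 0.37). The lower ones were Scd4, Hspa1a, Adamts9 (−0.82 and −0.41) and Btg2. Adamts9, a matrix protease, had the clearest separation of these: 7.25, 7.43 and 7.66 at 24 h against 6.34, 6.67 and 6.78 at 72 h (SE 0.09, adjusted p = 0.0031), with sham at 7.03 ± 0.17 and 6.61 ± 0.28 (SD, n = 6). None of these 8 was called in the sham contrast. Their choice followed their values.

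At the other end stood genes whose time effect differed most from sham. With the same genes left out, besides Myh7, Lce1j, Mir3473d, Trdj1 and Mir3058 the highest 6 called included Igkv2-137, an immunoglobulin kappa segment (difference of time effects 1.29, SE 0.23, adjusted p = 0.00762). The lowest 6 were Nr4a3, Dbp, Snora81, Adh1, Higd1a and Syt12. Adh1, the liver-type alcohol dehydrogenase, lay at 8.37, 8.52 and 8.84 at MCAO 24 h and at 7.82, 8.02 and 8.09 at MCAO 72 h (−0.56, SE 0.09, adjusted p = 0.011). In sham it went the other way, from 6.86 ± 0.37 to 7.57 ± 0.71 (SD, n = 6; 0.71, adjusted p = 0.71), and the time effects differed by −1.27 (SE 0.32, adjusted p = 0.0415). Kmt5a, the histone H4 lysine 20 methyltransferase, was higher at 72 h without overlap: 10.28, 10.37 and 10.58 against 10.83, 11.10 and 11.18 (0.68, SE 0.08, adjusted p = 0.0031; against sham 0.71, SE 0.09, adjusted p = 0.00104). It was named after its values were seen.

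How many genes passed depended on single arrays. Leaving out 1 MCAO 72 h array lowered the count of 848 to between 228 (replicate 3) and 400 (replicate 6). Leaving out 1 MCAO 24 h array gave 1474 without replicate 6, 1414 without replicate 1, 530 without replicate 4 and 621 to 862 without one of the other three. In total 209 genes were called in each of these 12 fits. With the leading principal component over the 1365 receptor genes as a covariate in the model, 0 genes were called by limma (2877 at an unadjusted p of 0.05), and 838 of the 848 kept their direction. The median absolute difference of the 848 genes was then 0.29 in place of 0.45 and their median SE 0.163 in place of 0.0968. That component ran from −8.04 to −0.418 on the MCAO 24 h arrays and from 0.612 to 1.41 on the MCAO 72 h arrays, with no overlap, so it and the time after stroke cannot be told apart. Of the receptor genes themselves 18 (1.32%) were called. Myh7 had a difference of 3.58 in that model, Nr4a1 −1.50, Atf3 −1.07 and Slc40a1 −1.54, all larger in size than without the component. Their SEs of 0.74, 0.41, 0.17 and 0.34 were larger too. None of the 4 was called (limma, adjusted p = 0.187, 0.26, 0.0831 and 0.22) with the component. Smaller differences than without it remained for Mir27a (−0.65), Mir23a (−0.13), Inmt (0.40), Trdj1 (0.28), Ifi207 (0.26) and Syt12 (−0.10). Zhx3 (−0.10) and Trbj2-5 (−0.035) changed sign.

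**Figure D5:**
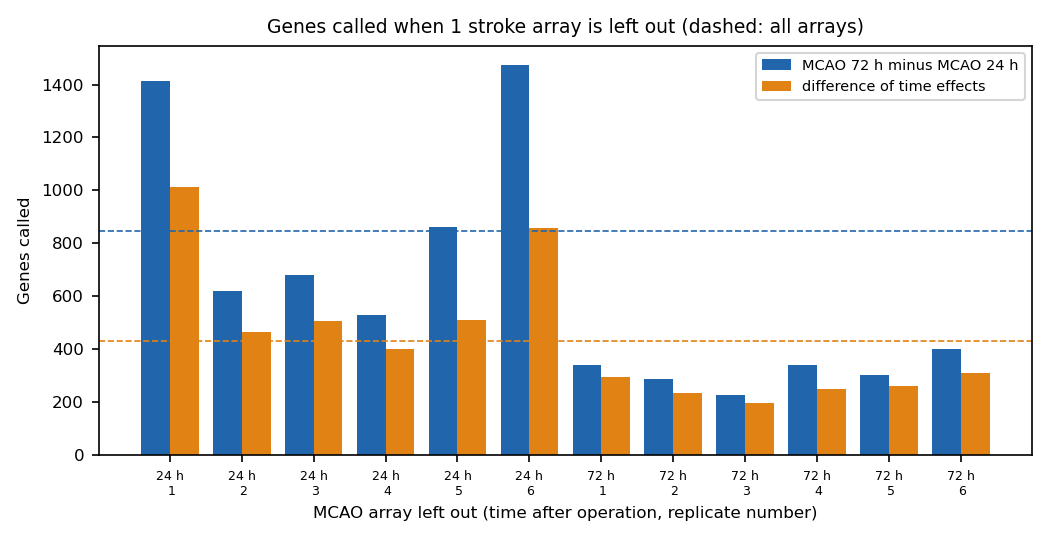
Bars give the number of genes called for MCAO 72 h minus MCAO 24 h (blue) and for the difference of time effects (orange) after leaving out the named array; the dashed lines mark 848 and 430, the counts with all arrays. The lowest blue bar is 228, without MCAO 72 h replicate 3, and the highest is 1474, without MCAO 24 h replicate 6.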

How the data were processed

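Total RNA from hearts was extracted with Trizol and hybridised as biotinylated cRNA to Affymetrix arrays, per the labels' protocols. The deposited table holds log2 expression values made by the authors. How they corrected background and normalized is not stated in the labels; sorted values are identical in 23 of 24 columns, as after quantile normalization, and they were used as deposited. HOMER is named in the submitters' processing notes. Array number limits precision. Free-text descriptions of the 72 h samples give 24 h, and titles and time labels were followed.

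Of 24973 identifiers, 24015 had 1 symbol, 0 several and 958 none, which left 24011 genes. limma 3.58.1 in R 4.3.3 was fitted to the 12 stroke arrays, to the 12 sham arrays and, for the difference of time effects, to all 24, with Benjamini-Hochberg adjustment over all genes. The code was tested on simulated data. Members and the 37 gene lists were chosen with earlier results of these data known. Named genes, leaving out unnamed, predicted and olfactory or vomeronasal receptor symbols, are the 15 highest and 15 lowest called differences, the 6 highest and 6 lowest differences of time effects, called list members, up to 4 members of smallest p per described list, and genes said to be chosen after their values were seen. Fkbp5, Lcn2, Myh6, Nppa, Nppb, Npas2, Per3, Per2, Gja1, Hspa5, Hsp90b1, Ddit3, Pdia3, the microRNA genes outside the 30 largest changes and the cardiomyocyte check genes were chosen after values were seen. Alternatives changed the fit, normalization, filter on dim genes, identifiers and arrays.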

Additional observations from a re-analysis of the deposited data

Results flagged for a closer look

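For 41 of the 129 named genes the difference between 72 h and 24 h was not the same after stroke as after sham operation, by limma's test of the difference of time effects over all 24 arrays. Over all genes that test called 430 of 24011 (1.79%). Many of the 129 were named because of this test or of the stroke contrast, which shares arrays with it. The choice of genes therefore raised their share, which says nothing further. The time effect was more positive after stroke for Myh7 (2.82), Lce1j (1.96), Mir3473d (1.50), Trdj1 (1.30), Igkv2-137 (1.29), Mir3058 (1.27), Trbj2-5 (1.17), Zhx3 (1.13), Trgv1 (1.10), Nmrk2 (1.05), Tuba4a (1.01), Spin2d (1.00), Gja1 (0.72), Kmt5a (0.71), Hk1 (0.67), Mir449b (0.66), Tnnt3 (0.60), Fbxo30 (0.57), Canx (0.51) and Orm2 (0.42). It was more negative after stroke for Nr4a3 (−1.46), Dbp (−1.38), Snora81 (−1.35), Adh1 (−1.27), Higd1a (−1.25), Syt12 (−1.25), Mir490 (−1.06), Mir27a (−1.03), Mir23a (−1.02), Paqr6 (−0.87), Pomgnt2 (−0.84), Thrsp (−0.84), Ell2 (−0.81), Mir32 (−0.77), Atf3 (−0.74), Mir155 (−0.74), Snord37 (−0.73), Dgat1 (−0.72), Ier2 (−0.64), Eno3 (−0.62) and Sdhb (−0.49).

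A single array lay far from its group in 18 of the 258 pairs of gene and stroke group examined, where chance alone gives about 1 in 20. At MCAO 24 h there were 12, of which replicate 6 had 5 and replicate 5 had 4. Replicate 6 was lowest for Nmrk2 (4.31), Hspa8 (7.32), Rnf144b (6.29) and Actc1 (13.26) and highest for Slc25a20 (11.03). Replicate 5 was lowest for Tuba8 (8.31), Ero1a (6.33), Myh6 (11.93) and Myl2 (10.96). Replicate 1 was lowest for Pnpla2 (11.37), replicate 4 lowest for Decr1 (9.53) and replicate 3 highest for Hsph1 (8.25). At MCAO 72 h there were 6. Replicate 3 was highest for Hk1 (8.87) and lowest for Slc25a20 (9.80), and replicate 6 was highest for Mirlet7c-1 (3.92) and Tnnt2 (13.49). Replicate 4 was lowest for Adamts9 (6.34) and replicate 1 highest for Itgb6 (5.83).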

How the results depend on the processing

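For MCAO 72 h minus MCAO 24 h, 848 genes were called. The count was 2496 with all 24 arrays in the fit, 474 with dim genes left out, 65 with the replicate number as a block, 2056 without MCAO 24 h replicates 5 and 6 and 0 with the receptor component as covariate (limma, 2877 at an unadjusted p of 0.05). Leaving out 1 array gave 228 to 1474. The 1 sham call became 5 with all 24 arrays, 5 with a trended prior, 3 with array weights, 5 without dim genes, 3 when replicate 5 of Sham 24 h and replicate 3 of Sham 72 h were dropped, 6 with the component, and 0 to 4 with 1 array left out. The 430 genes of the difference became 218 without dim genes, 1079 without MCAO 24 h replicates 5 and 6, 279 without those sham arrays, 5 with the component and 197 to 1012 with 1 array left out. Genes called in both time contrasts went from 0 to 1 with all 24 arrays (Arntl) and ranged from 0 to 1 with 1 array left out. The 314 genes called in the stroke contrast and the difference became 165 without dim genes, 36 with the block, 824 without MCAO 24 h replicates 5 and 6, 0 with the component and 94 to 729 with 1 array left out. Called immediate-early genes numbered 3 with the block, 0 with the component and 3 to 10 with 1 array left out; those of endoplasmic reticulum stress 0, 0 and 1 to 4. The signs of Zhx3 (−0.10) and Trbj2-5 (−0.035) reversed with the component. Replicate numbers did not pair the arrays: same-numbered stroke arrays correlated at −0.0507 to 0.0459. Of 74 called named genes, 66 stayed called without MCAO 24 h replicates 5 and 6, 18 with the block, and all 74 with median centring, quantile normalization or other handling of identifiers. The cause of these shifts was not tested. Leaving out an array lowers the number of arrays in the fit and keeps 24011 genes, and leaving out dim genes lowers the number of genes tested to 12006.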
